A study of Mus musculus with 3 samples.

Results

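The 7 mouse genes described here were grouped under the transport of cholesterol towards mitochondria and its conversion to pregnenolone. They were taken from 21938 protein-coding genes of the GENCODE annotation on mm10. They were *Star*, *Tspo*, *Stard3* and *Stard4* for the delivery of cholesterol, *Cyp11a1* for the cleavage of its side chain, and *Fdx1* and *Fdxr* for the electrons that this cleavage consumes. Binding of Ad4BP/SF-1, the nuclear receptor NR5A1, was mapped by chromatin immunoprecipitation and sequencing (ChIP-seq) in Leydig cells, the androgen-producing cells of the testis. The cells came from the testes of several male ICR mice aged 9 weeks and were cultured with vehicle (veh in the labels) or with cAMP, with 1 library each. The strain carried no engineered allele in the labels, and the dose and duration of cAMP for these libraries are not given in the sources used here. The cells were enriched on a density gradient, and the peak lists hold no values by which their identity could be checked against marker genes. Peaks that overlapped a gene body extended by 50 kb at each end were assigned to that gene. By this rule the 7 genes had 12 peaks of the vehicle list, which holds 5721, and 11 of the cAMP list, which holds 4025.

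Steroid hormones are made from cholesterol, and the first enzymatic step takes place at the inner mitochondrial membrane. STAR moves cholesterol from the outer to the inner membrane and is regarded as the acutely regulated step of steroid production. There CYP11A1, a cytochrome P450, cuts the side chain with electrons that pass from NADPH through ferredoxin reductase (FDXR) and ferredoxin (FDX1). Hormones that raise cAMP stimulate this step in Leydig cells.

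Each peak came with a score in a column without a header. It is read here as the score of the peak caller MACS, −log10 of the p-value multiplied by 10, because the peaks carry MACS names and the methods name that caller, and under this reading a higher score marks a peak that stands out further from its surroundings. The scores ran from 50 to 904.96 in the vehicle list, with a median of 72.4, and from 50.01 to 803.27 in the cAMP list, with a median of 67.9. The lists hold no read numbers, the depth of the libraries is unknown, and the score rises with depth. A peak is therefore described below also by its list position, the percentage of peaks in its own list with a lower score. With 1 library per condition, no difference between vehicle and cAMP could be set against replicate error and none was tested. Under the same reading the lowest scores correspond to p-values of 1e-05 (vehicle) and 9.98e-06 (cAMP), which is stricter than the threshold named in the methods. Regions between these thresholds may have been called and not listed, so the absence of a peak from a list does not show absence of binding.

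Ad4BP/SF-1 binds as a monomer to a short sequence whose consensus, YCAAGGYC, was searched as its 4 words CCAAGGCC, CCAAGGTC, TCAAGGCC and TCAAGGTC on both strands. The stretches below are those on which the results on *Star*, *Cyp11a1*, *Fdx1* and *Fdxr* turn, taken from mm10 and written 5′ to 3′ on the strand of the gene, with each copy of the consensus in capitals. Where the copy lies on the strand opposite to the gene, the capitals show its reverse complement, such as GACCTTGA for TCAAGGTC. Distances are from the centre of the peak to the transcription start site (TSS) of the gene's principal transcript, and the names give them.
*Star*, 46.8 kb upstream, in both lists, chr8:25761474-25761752, plus strand: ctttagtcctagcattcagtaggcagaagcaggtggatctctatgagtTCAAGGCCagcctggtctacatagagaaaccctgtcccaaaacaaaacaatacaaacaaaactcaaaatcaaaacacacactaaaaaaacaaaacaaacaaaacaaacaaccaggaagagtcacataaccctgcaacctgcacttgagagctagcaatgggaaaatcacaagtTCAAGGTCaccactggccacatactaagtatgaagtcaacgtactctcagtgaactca
*Star*, 32.7 kb upstream, cAMP list only, chr8:25775713-25775878, plus strand: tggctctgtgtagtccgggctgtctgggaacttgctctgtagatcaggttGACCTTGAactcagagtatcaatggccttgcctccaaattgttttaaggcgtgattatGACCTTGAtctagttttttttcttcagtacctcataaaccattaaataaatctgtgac
*Cyp11a1*, 5.47 kb upstream, cAMP list only, chr9:58009095-58009202, plus strand: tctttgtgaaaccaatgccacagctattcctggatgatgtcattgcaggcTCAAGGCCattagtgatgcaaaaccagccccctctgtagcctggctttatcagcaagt
*Cyp11a1*, 2.90 kb upstream, vehicle list only, chr9:58011575-58011837, plus strand: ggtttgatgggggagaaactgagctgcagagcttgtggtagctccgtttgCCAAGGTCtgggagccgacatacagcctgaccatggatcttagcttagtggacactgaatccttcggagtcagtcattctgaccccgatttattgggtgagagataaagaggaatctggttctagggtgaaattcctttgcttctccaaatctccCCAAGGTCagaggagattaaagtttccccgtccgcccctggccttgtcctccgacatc
*Cyp11a1*, 3.51 kb downstream, cAMP list only, chr9:58018114-58018221, plus strand: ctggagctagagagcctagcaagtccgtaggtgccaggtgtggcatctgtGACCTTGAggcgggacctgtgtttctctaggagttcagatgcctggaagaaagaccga
*Fdx1*, exon 1, in both lists, chr9:51963350-51963457, minus strand: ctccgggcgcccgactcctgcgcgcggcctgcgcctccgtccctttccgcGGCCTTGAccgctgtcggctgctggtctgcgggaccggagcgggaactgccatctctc
*Fdx1*, 8.69 kb downstream, cAMP list only, chr9:51954719-51954826, minus strand: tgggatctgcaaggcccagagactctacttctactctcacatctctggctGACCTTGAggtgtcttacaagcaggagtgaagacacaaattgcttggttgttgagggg
*Fdxr*, intron 2, in both lists, chr11:115272915-115273086, minus strand: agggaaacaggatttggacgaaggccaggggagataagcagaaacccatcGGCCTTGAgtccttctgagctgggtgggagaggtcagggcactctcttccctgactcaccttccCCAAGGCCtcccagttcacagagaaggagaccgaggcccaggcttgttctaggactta
*Fdxr*, 15.6 kb upstream, in both lists, chr11:115292632-115292739, minus strand: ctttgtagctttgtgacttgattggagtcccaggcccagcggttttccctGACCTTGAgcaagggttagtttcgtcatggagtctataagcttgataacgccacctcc

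The strongest peak near *Cyp11a1*, in both lists, held no copy of the full consensus, and it is shown because the ratio of its scores differed most between the lists. Here the capitals mark the single copy of CAAGGYC, the consensus without its first base, as its reverse complement.
*Cyp11a1*, 22.4 kb downstream, in both lists, chr9:58036978-58037084, plus strand: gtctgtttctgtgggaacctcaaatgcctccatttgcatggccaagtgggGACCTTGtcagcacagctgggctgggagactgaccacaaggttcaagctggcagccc

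*Star*, *Cyp11a1*, *Fdx1* and *Fdxr* had peaks in both lists, *Stard4* had 1 peak in the vehicle list, and *Tspo* and *Stard3* had none. Within 50 kb, 5 of the 7 genes had a vehicle peak, beside 36.7% of all protein-coding genes. For cAMP these were 4 genes, beside 28.9%. Both lists had a peak at 4 genes, beside 22.5%, and either list at 5, beside 43.1%. In the gene bodies alone, 4 of the 7 genes had a vehicle peak, beside 12.6% of all genes, and the same 4 a cAMP peak, beside 9.16%. The member genes were not long, with bodies of 9.03 kb (*Fdxr*) to 22.7 kb (*Stard3*) and a median protein-coding gene of 17.4 kb. A peak in the top 10% of scores of its list lay within 50 kb of 1 gene for vehicle (*Fdxr*), beside 6.50% of all genes, and of 2 genes for cAMP (*Cyp11a1* and *Fdxr*), beside 4.34%.

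**Figure D1:**
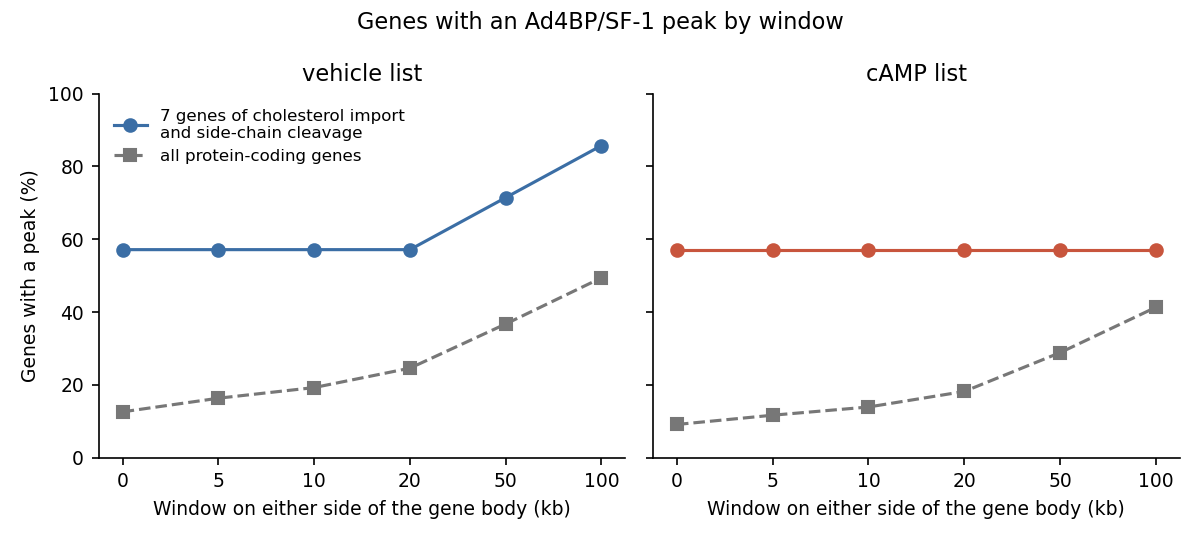
Percentage of genes with a peak (vertical axis) by the window on either side of the gene body in kb (horizontal axis, steps evenly spaced), for the 7 genes (circles) and all protein-coding genes (squares), in the vehicle list (left) and the cAMP list (right). The cAMP count stays at 4 of 7 genes from the gene body to 100 kb while the background rises from 9.16% to 41.3%, and the vehicle count is 4 genes up to 20 kb and 6 at 100 kb, beside 49.4%.

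The numbers of peaks differed among the 4 genes. *Cyp11a1* had 3 vehicle peaks, a number reached by 6.05% of all protein-coding genes in the same window, and 4 cAMP peaks, reached by 0.748%. *Fdxr* had 4 vehicle peaks, a number reached by 2.64% of genes, and 2 cAMP peaks, reached by 8.17%. *Star* had 3 peaks in each list, reached by 6.05% of genes for vehicle and 2.65% for cAMP. *Fdx1* had 1 vehicle peak, reached by 36.7% of genes, and 2 cAMP peaks, reached by 8.17%. Because the window is wide, other genes shared it, and the nearest protein-coding TSS was that of the member gene for 5 vehicle peaks out of 12 and 6 cAMP peaks out of 11.

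**Figure D2:**
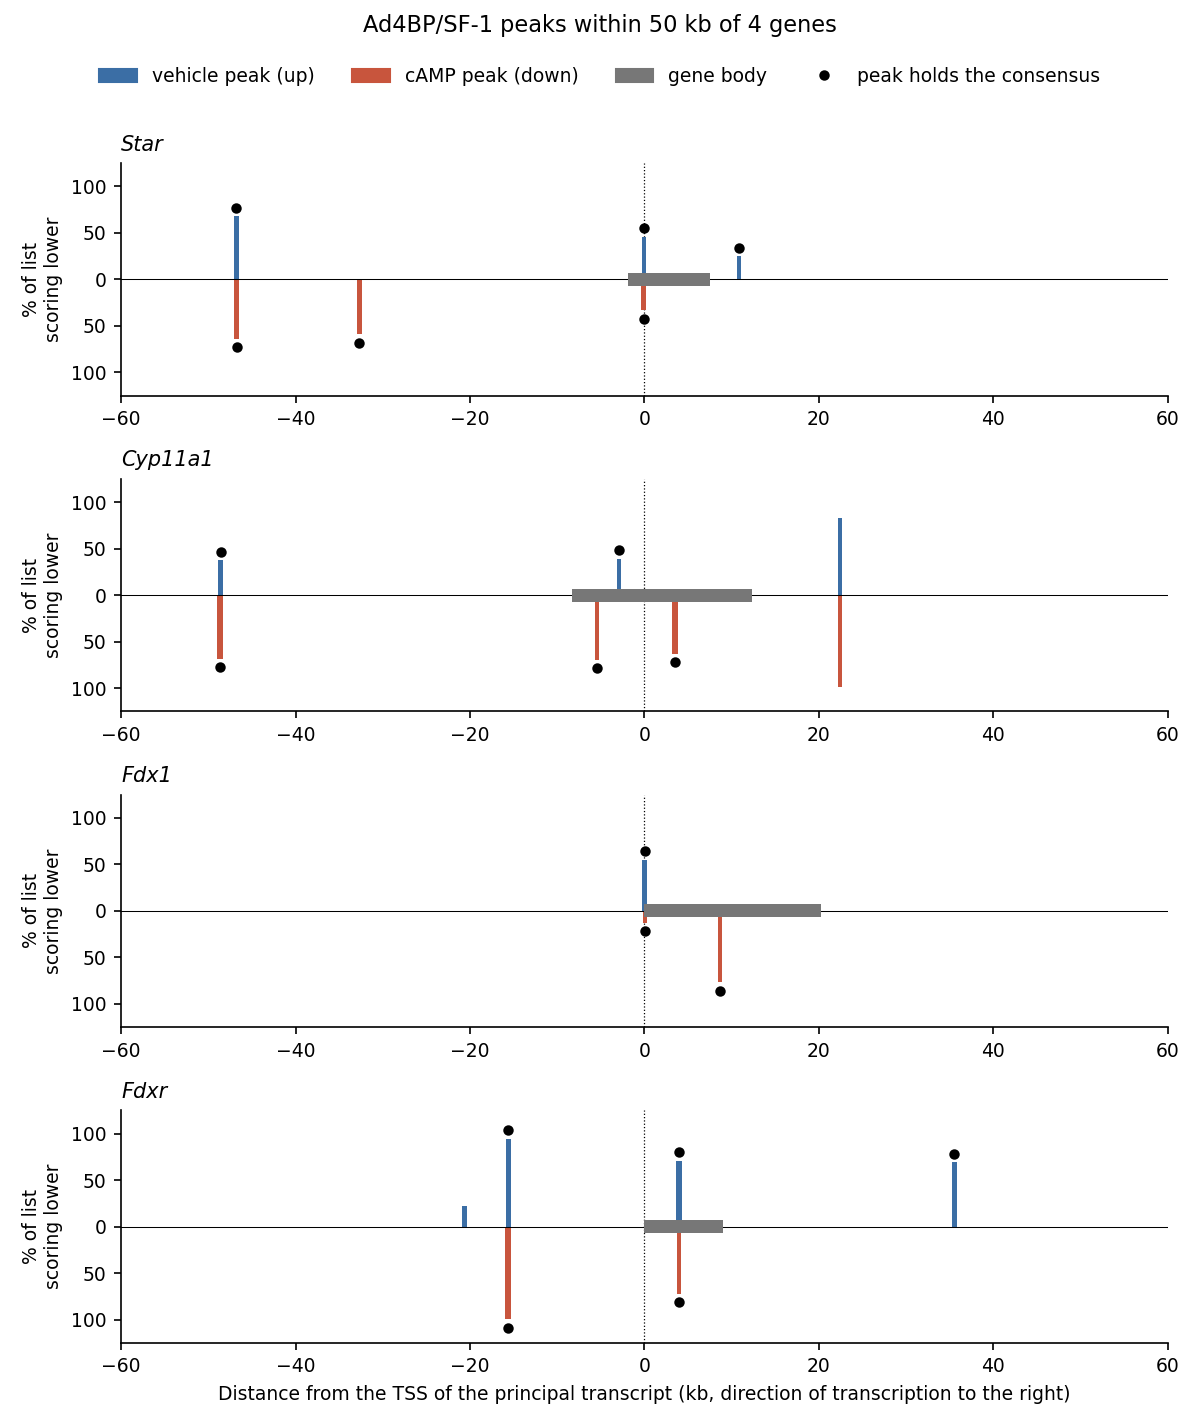
Peaks within 50 kb of *Star*, *Cyp11a1*, *Fdx1* and *Fdxr* by distance from the TSS of the principal transcript in kb (horizontal axis), with the list position of each vehicle peak drawn upward and of each cAMP peak downward (vertical axis, percentage of the list scoring lower). Grey bars are gene bodies and black dots mark peaks that hold the consensus, and 7 positions carry a bar in both directions.

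*Star* (ENSMUSG00000031574, chromosome 8, 25806555 to 25815982, plus strand) had a peak at its principal promoter in both lists, and neither of these was among its list's higher scores. The vehicle peak, from 25808183 to 25808702, had its centre 32 bp upstream of the principal TSS and scored 69.68, rank 3100 of 5721 and list position 45.8%. The cAMP peak, from 25808096 to 25808681, had its centre 86 bp upstream and scored 59.21, rank 2684 of 4025 and list position 33.3%. They shared 499 bp, and both held a single copy of the consensus, TCAAGGTC on the minus strand from 25808519 to 25808526, centred 48 bp downstream of the TSS.

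A pair of *Star* peaks far upstream scored higher than the promoter peaks in both lists. In vehicle-treated cells the peak from 25761474 to 25761885, 46.8 kb upstream, scored 90.17, and in cAMP-treated cells the overlapping peak from 25761437 to 25761979 scored 79.67. These stood at list positions of 67.9% and 63.8%. The region lay between genes, and the nearest TSS, at 7083 and 7112 bp from the peak centres, was that of *Ddhd2*, a phospholipase gene. The vehicle peak held 2 copies of the consensus and the wider cAMP peak held 3. Both copies held in common, at 25761522 and 25761695, were in soft-masked sequence, the part of the reference marked as repeats.

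The remaining *Star* peaks were each in 1 list. A vehicle peak from 25819075 to 25819513 began 3.09 kb past the end of *Star*, in intron 13 of *Ash2l*, a subunit gene of histone H3 lysine methyltransferases, and scored 58.75, at a list position of 25.2%. It held CCAAGGTC once, and the nearest cAMP peak was 10394 bp away. A cAMP peak from 25775574 to 25776024 lay 32.7 kb upstream of *Star*, in intron 2 of *Bag4*, a co-chaperone gene, whose TSS was 1783 bp away, and scored 74.37, at a list position of 58.9%. It held TCAAGGTC at 25775763 and 25775821, the former in soft-masked sequence, and the nearest vehicle peak was 13689 bp away. Exon 7 of *Star* holds the amplicon (25813066 to 25813168) that served the study as its unbound control region in ChIP-qPCR, and the nearest peaks were 4364 bp (vehicle) and 4385 bp (cAMP) from it.

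The other carriers of cholesterol had 1 peak among them. *Stard3* (ENSMUSG00000018167, chromosome 11, 98358368 to 98381112), which encodes a START-domain protein of late endosomes, had no peak within 50 kb in either list. Its nearest vehicle peak was 60.2 kb away, closest to the TSS of *Neurod2*, and scored 60.87, which made it the first peak outside the window. The nearest cAMP peak was 170.0 kb away, near *Med1*, and scored 59.31. *Tspo* (ENSMUSG00000041736, chromosome 15, 83563592 to 83574203), the gene for the translocator protein of the outer mitochondrial membrane, had its nearest peaks at 109 kb (vehicle, score 51.2) and 165 kb (cAMP, score 113.39), both closest to *Pacsin2*.

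*Stard4* encodes a soluble START-domain protein that transfers sterols between membranes. The gene (ENSMUSG00000024378) lies on the minus strand of chromosome 18, from 33199355 to 33213862. Its single vehicle peak, from 33261779 to 33262084, was 47.9 kb from the gene and thus the one nearest to the edge of the window. It scored 52.42, above 8.04% of the list, and held neither the consensus nor CAAGGYC. The nearest cAMP peak was 561 kb away, near *Epb41l4a*, and scored 50.74. *Stard4* was the only one of the 5 genes with peaks whose peaks lay outside its body altogether and in a single list.

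*Cyp11a1* (ENSMUSG00000032323, chromosome 9, 58006411 to 58027023, plus strand), the gene of the side-chain cleavage enzyme, had 2 peak pairs that overlapped between the lists, both outside the gene, and 3 peaks inside the gene that did not. The strongest pair lay past the 3′ end of the gene. The vehicle peak, from 58036825 to 58037366, began 9.80 kb past the end and scored 123.87, rank 985 of 5721. In the cAMP list the peak from 58036868 to 58037362 scored 337.86, rank 35 of 4025. These correspond to list positions of 82.8% and 99.1%. Both lay in intron 11 of *Ccdc33*, a gene for a coiled-coil protein, whose TSS was the nearest at 4941 and 4921 bp.

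The other overlapping pair of *Cyp11a1* was 48.6 kb (vehicle) and 48.7 kb (cAMP) upstream of the principal TSS. The vehicle peak, from 57965811 to 57966338, scored 64.68, at a list position of 37.6%. The cAMP peak, from 57965659 to 57966314, scored 85.79, at a list position of 68.5%. Both held TCAAGGCC at 57966033 on the minus strand and lay between genes, with *Sema7a*, a semaphorin gene, as the nearest TSS at 25961 and 25873 bp.

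Inside *Cyp11a1* the lists placed their peaks at different positions. The vehicle peak, from 58011535 to 58012014, was 2.90 kb upstream of the principal TSS, scored 65.55 at a list position of 39.2%, and held CCAAGGTC at 58011625 and 58011780. The first cAMP peak, from 58008967 to 58009443, was 5.47 kb upstream of that TSS, scored 87.11 at a list position of 69.6%, and held TCAAGGCC once. These upstream peaks fall within the gene body because GENCODE places the outermost *Cyp11a1* TSS further 5′. The second cAMP peak, from 58017859 to 58018499, was in intron 2, 3.51 kb downstream of the TSS, scored 78.27 at a list position of 62.9%, and held TCAAGGTC once. The vehicle peak was 2092 bp from the nearest cAMP peak, so none of the 3 peaks touched a peak of the other list.

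*Fdx1* (ENSMUSG00000032051, chromosome 9, 51943306 to 51963556, minus strand) encodes ferredoxin, the iron-sulfur protein that hands electrons to CYP11A1. A peak sat on its first exon in both lists. In vehicle-treated cells it ran from 51963271 to 51963805, had its centre 8 bp downstream of the principal TSS and scored 76.67, rank 2566 of 5721. In cAMP-treated cells it ran from 51963262 to 51963687, had its centre 72 bp downstream and scored 52.79, rank 3506 of 4025. The list position was 55.1% for vehicle and 12.7% for cAMP. Both held TCAAGGCC from 51963400 to 51963407, in the coding part of exon 1. A cAMP peak without a vehicle counterpart lay in intron 2, from 51954607 to 51955097, 8.69 kb downstream of the TSS. It scored 99.52, at a list position of 76.7%, held TCAAGGTC at 51954769, and was 8174 bp from the nearest vehicle peak.

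*Fdxr* (ENSMUSG00000018861, chromosome 11, 115268024 to 115277050, minus strand) encodes ferredoxin reductase, the flavoprotein that takes electrons from NADPH. It had the highest-scoring peak of the 7 genes in each list. The vehicle peak, from 115292382 to 115292980, scored 199.83, rank 300 of 5721. The cAMP peak, from 115292384 to 115293018, scored 435.45, rank 18 of 4025. Both were 15.6 to 15.7 kb upstream of *Fdxr*, in intron 2 of *Fads6*, a fatty acid desaturase gene, whose TSS was nearer at 4833 and 4813 bp. The peak held TCAAGGTC at 115292682, 4 bp (vehicle) and 16 bp (cAMP) from the centre.

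Within *Fdxr*, the peaks in intron 2 had nearly the same score in both lists. The vehicle peak, from 115272752 to 115273379, scored 95.08, and the cAMP peak, from 115272847 to 115273317, scored 91.36. Their list positions were 70.8% and 72.4%. They held the same copies of the consensus, CCAAGGCC at 115272965 and TCAAGGCC at 115273029. The vehicle list had 2 further peaks near *Fdxr* that the cAMP list lacked. The one from 115241348 to 115241673, past the 3′ end in intron 9 of *Tmem104*, scored 92.68 and held overlapping copies of CCAAGGCC and CCAAGGTC, and the nearest TSS was that of *Grin2c*, a glutamate receptor subunit gene, at 23919 bp. The one from 115297464 to 115297911 had its centre 24 bp from the TSS of *Fads6*, scored 57.54 and held no copy.

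Overlap between the lists was described over all peaks of the 7 genes. An overlap of 1 bp or more was found for 7 of the 12 vehicle peaks, which is 58.3% (27.7% to 84.8%, exact Clopper-Pearson interval at the 95% level, for counting error only), beside 37.9% of the whole list. Of the 11 cAMP peaks, the same 7 pairs made 63.6% (30.8% to 89.1%), beside 53.8%. Both intervals hold the value of the whole list. The vehicle peaks without a counterpart scored 52.42 to 92.68, with a median of 58.75, beside 65.0 for all such vehicle peaks. The 4 cAMP peaks without a counterpart, at *Star*, *Cyp11a1* and *Fdx1*, scored 74.37 to 99.52, with a median of 82.7, beside 58.7 for all such cAMP peaks.

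Among the 7 overlapping pairs, the score was higher with cAMP in 3 and lower in 4, a split that was not the same by list position (given below). The ratio of the cAMP to the vehicle score was 2.73 for the *Cyp11a1* pair in *Ccdc33*, a ratio above those of 98.9% of all 2167 overlapping pairs, and 2.18 for the *Fdxr* pair in *Fads6*, above 97.4%. It was 1.33 for the *Cyp11a1* pair 48.6 kb upstream and 0.961 for *Fdxr* intron 2. The other ratios, also below 1, were 0.884 for the upstream *Star* pair, 0.850 for the *Star* promoter and 0.689 for *Fdx1* exon 1. Over all pairs the median ratio was 0.881, with quartiles of 0.632 and 1.19, so both *Star* pairs, the *Fdx1* pair and *Fdxr* intron 2 lay between the quartiles. List positions were also set side by side, although the lists differ in length and their depth is unknown. The position in the cAMP list minus that in the vehicle list was 30.9 percentage points for the *Cyp11a1* pair 48.6 kb upstream and 16.3 for the *Ccdc33* pair. It was 4.80 for the *Fads6* pair, near the top of both lists, and 1.60 for *Fdxr* intron 2. By this measure 76.6% of all pairs lay below the *Ccdc33* pair and 63.8% below the *Fads6* pair. The upstream *Star* pair had a difference of -4.12, the *Star* promoter of -12.5 and *Fdx1* exon 1 of -42.4, with 10.4% of pairs below the last, beside a median of -2.01 over all pairs. When the vehicle list was shortened to its 4025 highest-scoring peaks, an alternative chosen after the values had been seen, the sign turned for both *Star* pairs, to 9.39 upstream and 10.3 at the promoter. *Fdx1* then had a difference of -23.5, *Fdxr* intron 2 of 13.9 and the *Fads6* pair of 7.01. The *Cyp11a1* pair 48.6 kb upstream had 57.1 and the *Ccdc33* pair 23.6, beside a median of 1.16 over 1870 pairs. The size of these differences thus depended on the length of the lists.

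**Figure D3:**
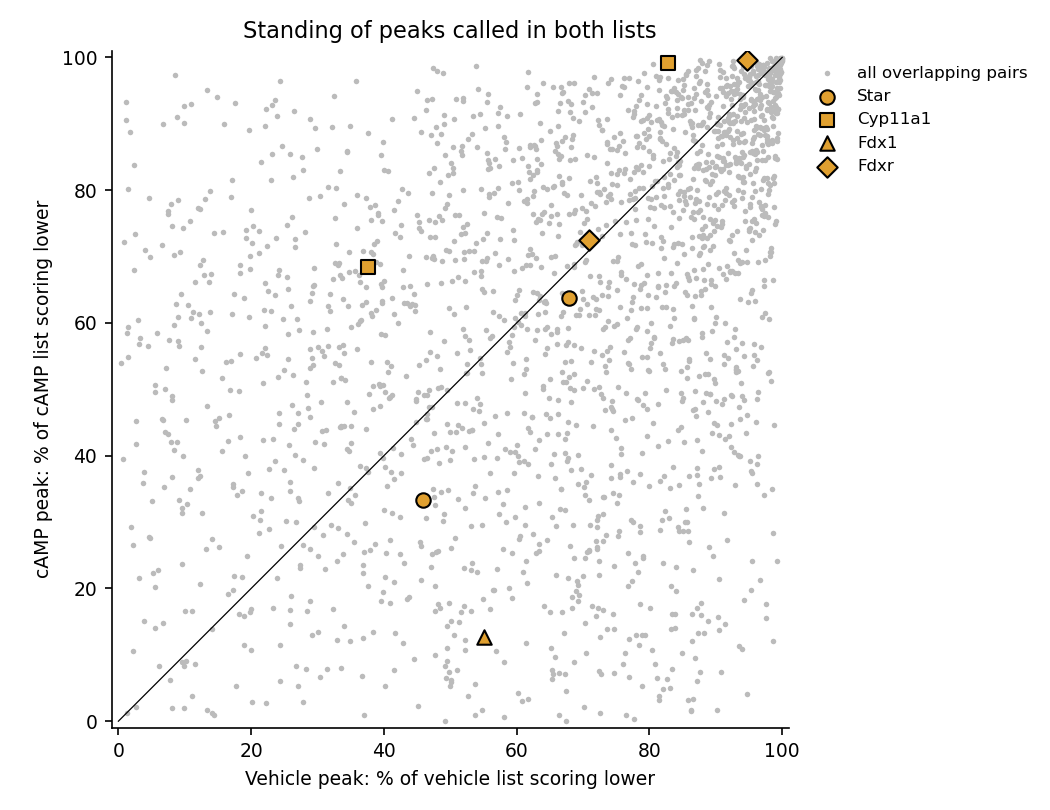
List position in the vehicle list (horizontal axis, percentage of the list scoring lower) against list position in the cAMP list (vertical axis) for all 2167 overlapping pairs (grey points) and the 7 pairs of *Star*, *Cyp11a1*, *Fdx1* and *Fdxr* (filled symbols), with a line of equal position. Both *Cyp11a1* pairs lie above the line, both *Star* pairs and the *Fdx1* pair below it, and the *Fdxr* pairs just above it, and with lists of equal length the *Star* pairs would lie above it, at differences of 9.39 and 10.3 percentage points.

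The scores of the 7 genes' peaks were otherwise spread over the lists. Their median was 73.2 for vehicle and 85.8 for cAMP, with 6 of 12 and 9 of 11 peaks above the median of their list. The top 10% of scores began at 155.51 for vehicle and 140.93 for cAMP and held 1 and 2 of these peaks. The median width was 500 bp for vehicle and 495 bp for cAMP, beside 513 and 476 bp for the lists. The peaks in gene bodies, 4 for vehicle and 6 for cAMP, scored 65.55 to 95.08 and 52.79 to 99.52, below the top 10% in each list. Measured to the nearest annotated TSS of their own gene, the median distance was 17665 bp for the vehicle peaks and 6145 bp for the cAMP peaks. This gap rested on the window, since with 20 kb on either side the medians were 3659 and 3218 bp, and for the peaks in gene bodies the order turned, with 1464.5 bp for vehicle and 1788.5 bp for cAMP.

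At least 1 copy of the consensus lay in 9 of the 12 vehicle peaks, which is 75% (42.8% to 94.5%), beside 80.4% of the list. For cAMP it lay in 10 of 11, which is 90.9% (58.7% to 99.8%), beside 77.1%. These shares are near the background. The vehicle peaks without it were those of *Stard4*, of *Cyp11a1* in *Ccdc33* and of *Fdxr* at the *Fads6* TSS, and the cAMP peak without it was the *Ccdc33* peak. The nearest copy lay a median of 33 bp (vehicle) and 50 bp (cAMP) from the peak centre, and at most 135 and 134 bp. The vehicle peaks held 13 copies in all, of which 4 were CCAAGGTC, and the 14 copies in cAMP peaks included none of this word, beside 17.5% and 15.7% of the copies in the lists. These 4 copies lay in vehicle peaks without a cAMP counterpart, at *Star*, *Cyp11a1* and *Fdxr*. Copies in the shared part of overlapping peaks are the same bases, counted in both lists. TCAAGGTC, the most frequent word in both lists (42.6% and 45.1%), made 3 of the 13 and 8 of the 14 copies, most of the 8 at *Star*. Of the 13 and 14 copies, 2 (vehicle) and 3 (cAMP) lay in soft-masked sequence, all at *Star*, beside 36.1% and 40.9% of the copies in the lists.

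Most copies of the consensus near the 7 genes lay in no peak. The windows of 50 kb on either side held 281 copies, from 27 at *Stard4* to 50 at *Cyp11a1*, and the median window of a protein-coding gene held 32. *Tspo*, without a peak, had 49 copies and *Stard3* had 41, more than *Star* with 36 and *Fdx1* with 33. A vehicle peak covered 13 of the 281 copies, or 4.63%, beside 1.60% over all gene windows, and a cAMP peak covered 14, or 4.98%, beside 1.08%.

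**Figure D4:**
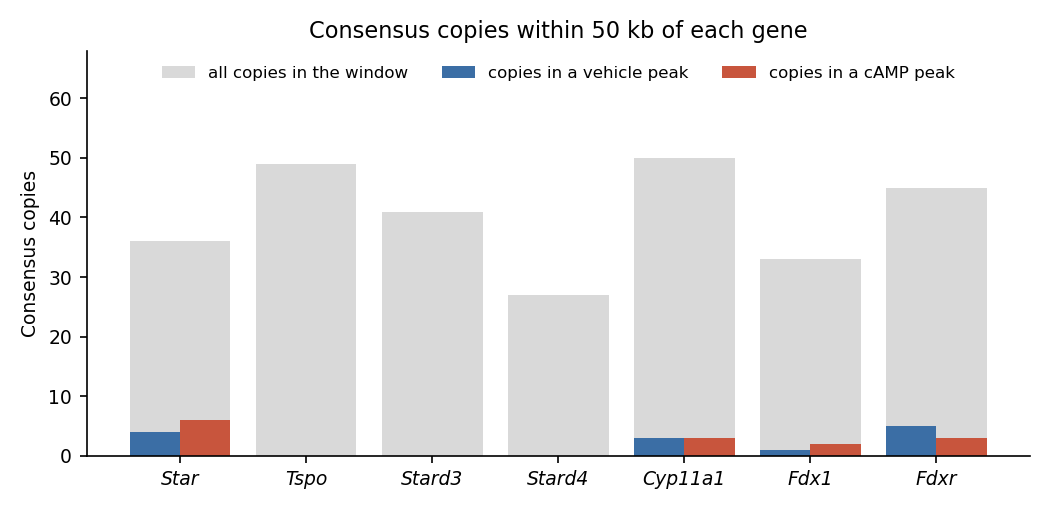
Copies of the consensus within 50 kb of each of the 7 genes (grey bars, vertical axis in copies) and the numbers of them that lie in a vehicle peak (blue) or a cAMP peak (red), drawn in front from the same baseline. *Cyp11a1* (50) and *Tspo* (49) have the most copies, and of these 3 are in a peak of each list at *Cyp11a1* and none at *Tspo*.

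Promoter sequences of RefSeq (GRCm38.p6), 250 bases before to 50 after a start, were matched for 4 of the 7 genes, with 5 promoters. *Fdxr* had the consensus in this window, CCAAGGCC starting 141 bases before the start on the strand opposite to the gene, as did 5.73% of all 32851 promoters, and the nearest peaks were 3541 bp (vehicle) and 3603 bp (cAMP) away. *Fdx1*, whose promoter window was overlapped by the peaks of both lists, had no copy there, since the copy in the peaks lies further into exon 1. Neither the 2 promoters of *Cyp11a1* nor that of *Stard3* had a copy. The nearest peaks to the *Cyp11a1* promoter at 58014702 to 58015001 were 2688 bp (vehicle) and 2858 bp (cAMP) away.

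Other short sequences were counted in the same peaks on both strands. The cAMP response element TGACGTCA was in no peak of the 7 genes, beside 0.699% of the vehicle and 0.770% of the cAMP list. The AP-1 sequence TGACTCA was in 3 vehicle and 2 cAMP peaks (16.1% and 17.3% of the lists), and the GATA sequences AGATAA in 4 and 3 (25.9% and 23.7%) and TGATAA in 4 and 3 (18.9% and 17.9%). GGGCGG, the GC box, was in 4 vehicle and 2 cAMP peaks (13.3% and 9.79%). The NBRE sequence AAAGGTCA, a binding sequence of the NR4A receptors, was in 1 vehicle peak, that past the end of *Star*, and in no cAMP peak (3.92% and 3.53%).

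Among 19 other genes of cholesterol delivery and of mitochondrial P450 reactions, 13 had a vehicle peak within 50 kb (36.7% of all protein-coding genes), 10 a cAMP peak (28.9%), 9 both (22.5%) and 14 a peak in either list (43.1%). *Stard6*, *Acbd3*, *Lonp1*, *Gramd1c* and *Cyp24a1* had none. In the gene body 5 had a vehicle peak (12.6% of all genes) and 4 a cAMP peak (9.16%), a lower share than the 4 of 7 member genes. The differences between these shares were not tested. *Stard5*, a cytosolic START-domain gene, had overlapping peaks in intron 1 with scores of 162.56 for vehicle and 101.62 for cAMP. A second *Stard5* pair, 7.67 kb (vehicle) and 7.79 kb (cAMP) upstream, scored 67.09 and 93.19, and a cAMP peak of 53.66 lay further upstream.

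Of the genes around TSPO and the outer membrane, *Dbi*, whose product is a ligand of TSPO, had cAMP peaks of 57.25 in intron 2 and 66.67 in intron 1 that the vehicle list lacked, besides a pair 46.984 kb (vehicle) and 47.027 kb (cAMP) downstream of its TSS. *Vdac1*, an outer membrane channel gene, had a cAMP peak of 60.63 at 21.1 kb upstream. *Vdac2* had a pair 2.34 and 2.35 kb past the gene with scores of 114.87 and 74.29. *Atad3a*, for a mitochondrial membrane ATPase, had a pair 22.9 kb upstream with scores of 82.46 and 58.79. The nearest protein-coding TSS of the *Dbi*, *Vdac2* and *Atad3a* pairs was that of another gene. For vehicle and cAMP it was 20 and 23 bp away (*Dbi* pair), 172 and 150 bp (*Vdac2*), and 1887 and 1913 bp (*Atad3a*). Among the genes for STAR handling and membrane contacts, *Akap1*, whose product anchors protein kinase A to the outer mitochondrial membrane, had 2 pairs in its introns. The pair in intron 1 scored 110.05 for vehicle and 159.53 for cAMP, rank 1257 and 294, and that in intron 2 scored 65.36 and 91.13. *Mfn2*, a mitochondrial fusion gene, had a vehicle peak of 52.34.

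Of the endoplasmic reticulum sterol transporters, *Gramd1a* had vehicle peaks of 57.07 and 60.72 in intron 7. *Gramd1b*, which is long at 238 kb, had 2 vehicle and 4 cAMP peaks in its body, with 1 overlapping pair of 115.7 and 104.25. Of the genes for another ferredoxin and other mitochondrial P450 enzymes, none had a peak in its body. *Fdx1l*, the paralog of *Fdx1*, had vehicle peaks of 66.96 and 122.91 upstream. *Cyp11b1*, the gene of 11β-hydroxylase, had a pair of 55.65 (vehicle) and 109.86 (cAMP), and shared a vehicle peak of 89.79 with *Cyp11b2*, the aldosterone synthase gene. *Cyp27a1*, the sterol 27-hydroxylase gene, had a vehicle peak of 118.0 and a separate cAMP peak of 140.56. *Cyp27b1*, which activates vitamin D, had a pair of 70.85 and 55.24 and a vehicle peak of 61.56. For every peak of *Fdx1l*, *Cyp11b1*, *Cyp11b2*, *Cyp27a1* and *Cyp27b1*, the nearest protein-coding TSS was that of another gene. This TSS was 405 bp (vehicle) and 483 bp (cAMP) from the *Cyp27b1* pair and 240 bp from its other peak. It was 3843 and 3938 bp from the *Cyp11b1* pair, and 3130 bp (vehicle) and 7208 bp (cAMP) from the *Cyp27a1* peaks. It was 4620 bp from the shared vehicle peak and 5676 and 10302 bp from the *Fdx1l* peaks.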

How the data were processed

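Reads from the vehicle and cAMP libraries were aligned by the authors to mm10 with Bowtie (version 0.12.8 in the submitters' processing notes), reads with 1 position were kept, and peaks were called per library with MACS, which leaves out peaks in sequence that reads cannot place. Use of the input library as control is not given in the sources used here, and that library was not analysed. The deposited lists give a score per peak in a column without a header, read here as the MACS score (10 times −log10 of the p-value) from the caller named in the methods.

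Peaks were assigned to GENCODE M21 genes in Python 3.11.15 (pandas 2.3.3, numpy 2.4.6). An overlap was at least 1 bp. Sequences were read with pysam 0.24.0 and samtools 1.23.1, intervals came from scipy 1.17.1 and plots from matplotlib 3.10.9. Counting was tested on simulated peaks. Named genes were the 7 members, genes of the 19-gene list with a peak, and the gene with the TSS nearest to each member peak. *Stard6*, *Acbd3*, *Lonp1*, *Gramd1c* and *Cyp24a1*, without a peak, *Tmem104*, which holds a member peak, and *Neurod2*, *Med1*, *Pacsin2* and *Epb41l4a*, nearest to peaks outside the window, were named after their values were seen. Members and lists were chosen with earlier results of these data known. Alternatives were other windows, minimum scores, consensus forms, overlap rules and start sites, the central part of each peak, and lists of equal length, without any replicate to leave out. Coordinates count from 1.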

Additional observations from a re-analysis of the deposited data

How the results depend on the processing

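The counts followed the window and the minimum score. With a narrower window, the vehicle peaks fell from 12 to 7 (20 kb), 6 (10 kb), 5 (5 kb) and 4 (gene body), and the cAMP peaks from 11 to 7 (10 kb), 6 (5 kb) and 6 (gene body). The median distance of vehicle peaks from the TSS, 17665 bp, was 3659 bp with 20 kb, 3278 bp with 10 kb and 1464.5 bp in the gene body, and that of cAMP peaks, 6145 bp, was 10898 bp with 100 kb, 3218 bp with 20 kb, 2794 bp with 10 kb and 1788.5 bp in the gene body, where it was the larger. Measured to the outermost start of the gene, the medians were 18134 bp (vehicle) and 11768 bp (cAMP). A minimum score of 75 left 6 vehicle peaks. A minimum score of 100 left 2 peaks in each list, at 2 genes in vehicle, in cAMP, in both and in either list. Of these peaks 100% overlapped the other list, and 50% of the cAMP peaks held the consensus. The peaks left were the *Cyp11a1* pair in *Ccdc33*, without the consensus, and the *Fdxr* pair in *Fads6*. With CAAGGYC, 100% of cAMP peaks had a copy (80.0% of the list), and with TCAAGGTCA 16.7% of vehicle (36.6%) and 45.5% of cAMP peaks (37.8%) did. With the vehicle list shortened to the length of the cAMP list, 9 vehicle peaks at 4 genes were left, and 77.8% of them overlapped a cAMP peak. The difference in list position between cAMP and vehicle, recomputed on these lists after the values had been seen, turned from -4.12 to 9.39 percentage points for the upstream *Star* pair and from -12.5 to 10.3 for the *Star* promoter pair, and kept its sign at the other 5 pairs, from -23.5 (*Fdx1*) to 57.1 (*Cyp11a1*, 48.6 kb upstream). In all, 63 values, the equal-length counts and overlap and the distances but the vehicle one in the gene body among them, stayed near the reported count or within the exact interval of the reported share or median, which is wide for so few peaks. A further 26 values moved, and 2, the differences in list position of the *Star* pairs, turned sign. No paired analysis was possible because each condition had 1 library. No read numbers were given, so the part of depth in the presence of peaks was not tested.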
